A study of Mus musculus with 6 samples.

Results

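The 40 genes described here encode proteins of G2 phase and mitosis: the kinases, cyclins and phosphatase of mitotic entry, the spindle checkpoint and the anaphase-promoting complex, chromosome proteins, kinetochore and centromere proteins, spindle motors and microtubule-binding proteins, and the cytokinesis machinery. They were chosen by name and function, with earlier results of these data known, and all 40 were found by symbol among the 49585 genes of the count table. All 40 also passed the filter on low counts, which 13744 genes passed.

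RNA-seq was performed on mouse MA9 leukaemia cells from bone marrow, MA9 commonly standing for the fusion oncogene MLL-AF9. There were 3 libraries of cells with loxP-flanked Gata2 alleles (Gata2 f/f) and 3 of cells labelled Gata2 -/- (Gata2 KO), whose columns carry the name Cre, so that Cre and the deletion cannot be told apart. All 6 cultures had received 5 uM Nutlin, which blocks MDM2 and so stabilises p53, for 18 h before RNA was purified, in medium with serum, IL-3, IL-6 and SCF. The comparison asks how expression in Nutlin-treated cells differs between the genotypes; cultures without Nutlin were not analysed here. The libraries of each genotype are numbered 1 to 3, and no label explains the numbers or tells whether a culture was one clone or several leukaemias.

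Genes of G2 and mitosis are transcribed late in the cell cycle. The MuvB complex binds their promoters, with MYBL2 and FOXM1 in cycling cells and with p130 or p107 and E2F4, as the DREAM complex, in arrested cells. Activation of p53 is known to lower their transcripts by way of the inhibitor p21, the product of Cdkn1a. Mki67, which encodes the Ki-67 protein that coats mitotic chromosomes, is the gene most used to mark cycling cells.

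The promoters of several members are shown because MuvB is known to bind the element TTTGAA, called CHR, often near CCAAT boxes bound by NF-Y. RefSeq windows (GRCm38.p6) of 250 bases before to 50 bases after a gene's start were found for 34 of the 40 members by symbol, in 36 windows. Aurkb, Cdc25c, Dlgap5, Foxm1, Kif20a and Tpx2 had no entry. TTTGAA was present on either strand in 26 of the 36 windows (72.2%), against 17.9% of the 32851 windows of all genes. CCAAT was present on either strand in 28 of the 36 (77.8%), against 37.4% of all windows. Both together were present in 23 (63.9%), against 6.95%. The related element TTCGAA, which is its own reverse complement, was present in 4 of the 36 (11.1%), against 1.56%. Each match was counted, also where neighbouring motifs share an end letter. A match describes letters only. Below, capitals mark TTTGAA as well as TTCGAA and CCAAT, or their reverse complements, 5′ to 3′ on the gene's strand. Mki67, Top2a and Cenpf are shown for their large differences between libraries, Cdk1 and Ccnb2 as the core kinase and a cyclin, and Birc5 as one of the 5 windows with none of the motifs. Cenpe is not shown, though its highest library exceeded its lowest by 7.03-fold, against 4.01-fold for Top2a. The Cenpe window held 0 TTTGAA, 0 TTCGAA and 1 CCAAT matches.
Mki67 (chr7:135716330-135716629, minus strand): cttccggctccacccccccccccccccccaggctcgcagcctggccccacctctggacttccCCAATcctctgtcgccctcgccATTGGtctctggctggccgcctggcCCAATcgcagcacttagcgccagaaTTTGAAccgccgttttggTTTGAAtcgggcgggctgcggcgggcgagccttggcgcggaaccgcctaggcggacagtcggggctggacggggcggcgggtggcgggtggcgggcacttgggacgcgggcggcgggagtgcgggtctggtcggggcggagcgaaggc
Top2a (chr11:99024140-99024439, minus strand): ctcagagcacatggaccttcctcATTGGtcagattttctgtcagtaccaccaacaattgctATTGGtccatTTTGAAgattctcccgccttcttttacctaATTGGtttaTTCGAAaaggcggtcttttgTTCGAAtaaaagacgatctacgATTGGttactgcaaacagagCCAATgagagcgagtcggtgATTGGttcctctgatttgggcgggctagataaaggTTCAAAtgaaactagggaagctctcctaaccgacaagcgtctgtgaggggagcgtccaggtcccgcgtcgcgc
Cenpf (chr1:189688037-189688336, minus strand): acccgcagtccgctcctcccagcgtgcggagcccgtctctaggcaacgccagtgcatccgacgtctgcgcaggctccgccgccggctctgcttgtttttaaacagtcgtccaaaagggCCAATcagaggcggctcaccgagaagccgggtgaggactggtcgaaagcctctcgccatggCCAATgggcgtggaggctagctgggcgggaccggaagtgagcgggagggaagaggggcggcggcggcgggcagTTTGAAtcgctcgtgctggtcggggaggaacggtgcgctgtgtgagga
Cdk1 (chr10:69352863-69353162, minus strand): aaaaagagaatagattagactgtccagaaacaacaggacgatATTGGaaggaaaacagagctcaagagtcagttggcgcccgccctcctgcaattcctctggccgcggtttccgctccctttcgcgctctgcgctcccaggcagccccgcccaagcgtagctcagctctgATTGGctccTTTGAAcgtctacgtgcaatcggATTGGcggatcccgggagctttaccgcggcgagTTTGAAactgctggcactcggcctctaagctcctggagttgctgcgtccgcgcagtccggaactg
Ccnb2 (chr9:70421505-70421804, minus strand): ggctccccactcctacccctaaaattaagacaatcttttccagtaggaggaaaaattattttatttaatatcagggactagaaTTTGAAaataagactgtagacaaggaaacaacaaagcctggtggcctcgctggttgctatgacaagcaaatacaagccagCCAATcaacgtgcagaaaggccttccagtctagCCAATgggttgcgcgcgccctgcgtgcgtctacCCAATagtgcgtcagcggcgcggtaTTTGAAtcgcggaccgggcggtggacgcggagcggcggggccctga
Birc5 (chr11:117848987-117849286, plus strand): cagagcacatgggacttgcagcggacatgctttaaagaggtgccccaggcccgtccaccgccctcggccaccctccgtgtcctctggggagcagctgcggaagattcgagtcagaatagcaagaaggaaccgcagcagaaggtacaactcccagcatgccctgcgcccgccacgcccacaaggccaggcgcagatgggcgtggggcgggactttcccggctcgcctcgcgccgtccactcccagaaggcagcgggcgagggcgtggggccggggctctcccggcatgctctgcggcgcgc
The Mki67 window held 2 TTTGAA and 3 CCAAT matches, and that of Top2a held 2 TTTGAA, 2 TTCGAA and 6 CCAAT matches. The Cdk1 and Ccnb2 windows each held 2 TTTGAA and 3 CCAAT matches, and that of Cenpf 1 and 2.

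Total counts ran from 17138687 to 26440960 per library, and the members had between 104 and 13721 counts each in a library. Counting error was thus small beside the larger differences between libraries, but not necessarily beside small ones. Gata2 itself was at 33.6, 22.3 and 18.4 CPM in f/f libraries 1, 2 and 3, and 5.44 and 4.33 CPM in those labelled Gata2 KO 1 and 3. The library labelled Gata2 KO 2 had 43.3 CPM, which is at odds with the label. Gata2 KO below means the libraries so labelled, and any direction rests on that label. CPM here are counts scaled to the TMM-normalised library size. Markers of the labelled leukaemia (Hoxa9, Hoxa10, Meis1, Myb, Kit, Cd34, Itgam and Mpo) summed to 727 to 1755 CPM per library. Singly they were not steady: the log2 difference of number 1 over number 3 ran from -1.98 to 3.51. It was highest for Kit, followed by 3.23 for Mpo. Of the 8, 5 were lowest in number 3 in both genotypes (26.2% of all genes) and 1 was highest there. Markers of B cells summed to 1.48 to 6.22 CPM, with Pax5 at 0 in all 6 libraries. Endothelial markers (Pecam1, Cdh5, Kdr and Tie1) summed to more, 120 to 202 CPM, and those of mast cells and basophils to 8.95 to 52.7 CPM. Such a sum does not tell which cells made the transcripts. The sums were 8.12 to 32.7 CPM for stroma and 5.67 to 22.4 CPM for T and NK cells. They were 3.02 to 12.1 CPM for erythroid cells and 2.77 to 27.1 CPM for megakaryocytes.

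No member passed the test of the genotype difference across all genes. The quasi-likelihood test of edgeR called 0 of the 40 after Benjamini-Hochberg adjustment, and 0% of the 13744 genes tested were called in either direction. At an unadjusted p under 0.05 the count was 0 of 40, against 1.24% of all genes. DESeq2 called 0 of 40 (0.0509% of all genes), and DESeq2 with the library number as a block called 0 of 40 (1.62%). The log2 fold changes of Gata2 KO over Gata2 f/f were negative for 29 members and positive for 11, ranging from -0.39 for Nek2 to 0.44 for Mki67. Their median was -0.10, beside 0.02 over all genes tested, of which 7220 were positive. With the size factors of DESeq2 or upper-quartile scaling, 9 and 8 members were positive. This median turned to 0.09, with 29 positive members, when the library labelled Gata2 KO 3 was left out. It was -0.35 with KO library 1 left out and -0.34 with f/f library 3 left out, with 1 and 2 positive members, and -0.18 without the library labelled Gata2 KO 2. In the edgeR fit without the block, the 95% confidence intervals of 23 members lay within a 2-fold change in both directions. The intervals of the remaining members reached beyond a 2-fold change, so that fit may have missed such a difference in them. Its standard errors, given below after log2 fold changes unless the block is named, include the spread between library numbers. With the block they were smaller, as for Cenpf (0.21 against 0.85) and Kif11 (0.20 against 0.50), and no member was called.

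**Figure D1:**
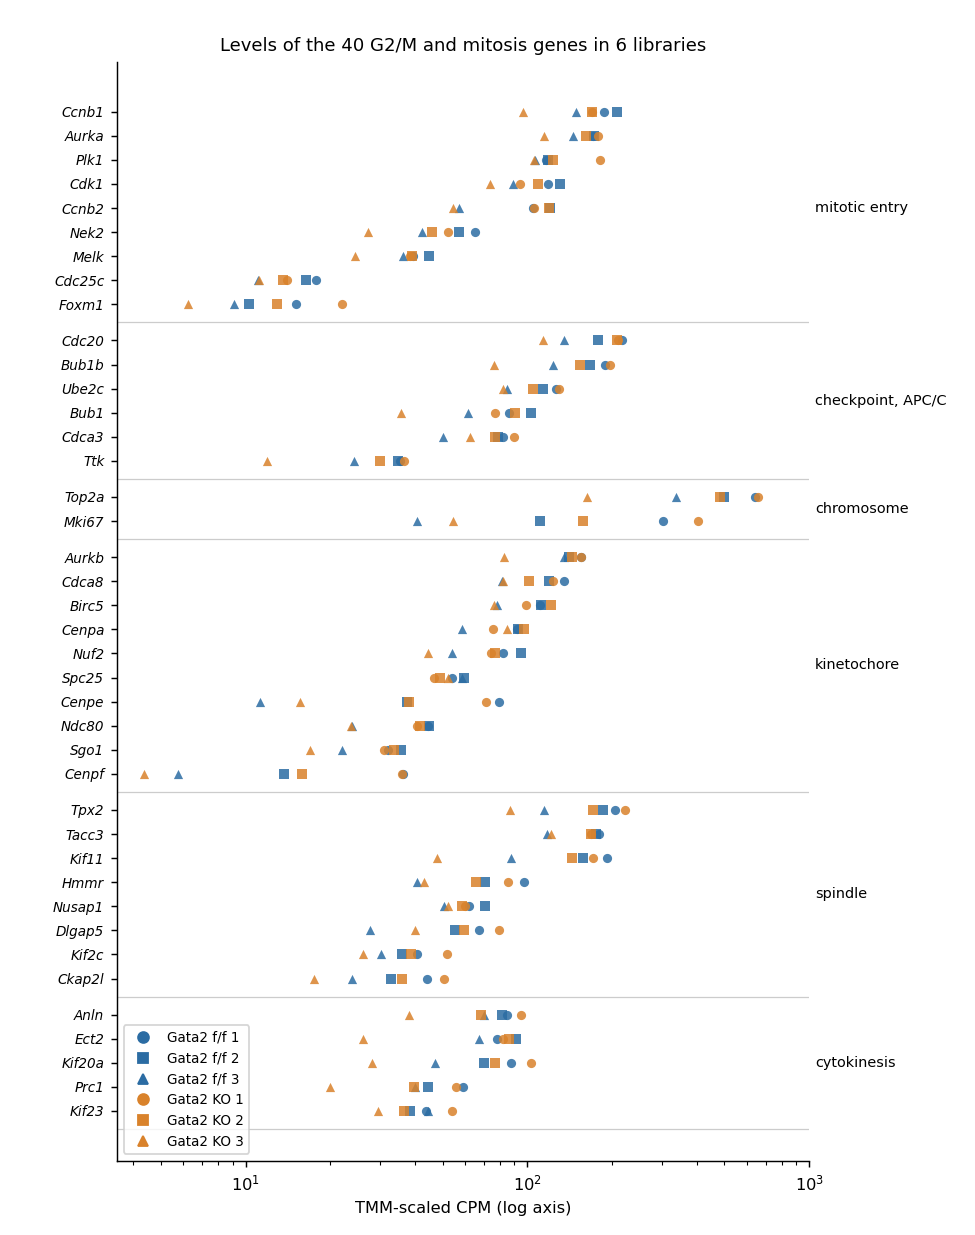
Levels of the 40 genes, 1 row each, grouped by role, on a log axis of TMM-scaled CPM; each point is 1 library, with colour for genotype and shape for the library number. The triangles of both libraries numbered 3 lie below the other 4 libraries in 35 of the 40 rows, and the spread is widest for Mki67, Cenpf and Cenpe.

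The difference that the members shared lay between library numbers. In 37 of the 40, the library numbered 3 was the lowest of its genotype in both genotypes, which held for 26.2% of all genes tested. The 3 exceptions were Cenpa, Spc25 and Kif23. In 35 members both libraries numbered 3 lay below all other 4, against 20.4% of all genes. With the library labelled Gata2 KO 2 left out, number 3 was again lowest in 37 of 40 (28.6% of all genes). In bulk RNA, fewer cycling cells and less RNA per cycling cell cannot be told apart. The F test of the number term in the blocked edgeR fit, chosen after the data were seen, called 8 members after adjustment over all genes, against 9.09% of genes: Mki67, Cenpf, Cenpe, Ccnb2, Kif11, Hmmr, Tpx2 and Dlgap5. All 8 were lowest in number 3.

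Mki67 (ENSMUSG00000031004.8, protein-coding, GRCm38 chr7:135689784-135716361, minus strand) had the widest spread of the 40. Its level was 303, 111 and 40.4 CPM in f/f libraries 1, 2 and 3, and 402, 158 and 54.3 CPM in the KO libraries 1, 2 and 3. The genotypes overlapped over all libraries, but within each number the KO library was the higher one. The means were 151 ± 136 CPM for f/f cells and 205 ± 179 CPM for KO cells (SD, n = 3 libraries each). The log2 fold change was 0.44 ± 0.87 (SE; 95% confidence interval -1.61 to 2.49; edgeR, adjusted p = 1.00). It turned to -0.06 when f/f library 3 was left out and to -0.52 when KO library 1 was. It was 1.36 with f/f library 1 left out, 0.26 with f/f library 2 and 0.86 with KO library 3 left out, and 0.59 with the library labelled Gata2 KO 2 left out. Those fits leave the numbers unequal between the genotypes.

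Between libraries of the same number, Mki67 differed by log2 0.41, 0.51 and 0.42 in numbers 1, 2 and 3, close to a constant amount. With the number as a block, it stood at 0.45 ± 0.14 on the log2 scale (edgeR, unadjusted p = 0.0190, adjusted p = 0.418). Nek2 was the only other member at an unadjusted p under 0.05 in that fit, so the count was 2 of 40, against 10.7% of all genes. With the library labelled Gata2 KO 2 left out of the blocked fit, the count was 0 of 40, and Mki67 stood at 0.41 (edgeR, adjusted p = 0.893). Between numbers, Mki67 was 7.43-fold higher in number 1 than in number 3 and 2.64-fold higher than in number 2, as geometric means over the genotypes (F test of the number term, adjusted p = 0.00432). Only 24 of the 13744 genes (0.175%) had as large a difference of number 1 over number 3.

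The other 39 members spread less between libraries, and 29 of them had negative log2 fold changes where Mki67 had a positive one. Their median level was 84.8, 81.2 and 57.4 CPM in f/f libraries 1, 2 and 3, against 82.0, 76.8 and 44.4 CPM in the KO libraries. Set against the mean log2 CPM of these 39, Mki67 lay at 1.86, 0.56 and -0.35 in Gata2 f/f and at 2.27, 1.14 and 0.41 in Gata2 KO. It was thus higher relative to the rest in the KO library every time, by 0.41, 0.58 and 0.76. The group means of this relative level were 0.69 ± 1.11 and 1.27 ± 0.94, so the difference of 0.59 was smaller than the spread within either genotype. It was 0.07 with f/f library 3 left out and 1.17 with f/f library 1 left out. Leaving out KO library 1 gave 0.09, KO library 3 1.02, and the library labelled Gata2 KO 2 gave 0.65. Members with a larger KO difference than Mki67 were Plk1 and Foxm1 in number 1, none in number 2, and Cenpa, Dlgap5 and Cenpe in number 3.

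**Figure D2:**
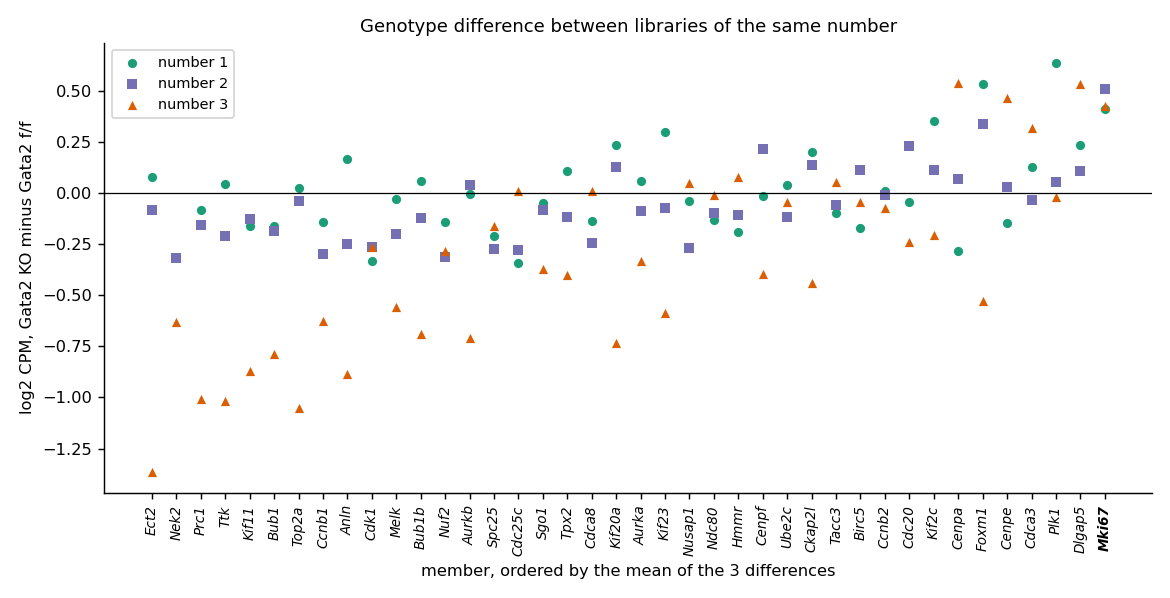
Difference in log2 CPM between the Gata2 KO and the Gata2 f/f library of the same number, for each of the 40 members in order of the mean of the 3 differences. Mki67, at the right end, has 3 values between 0.41 and 0.51, while number 3 (triangles) reaches -1.36 for Ect2.

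Within numbers, 2 members were higher in the KO library all 3 times, Mki67 and Dlgap5, against 20.7% of all genes. In 11 members the KO library was lower all 3 times, against 17.7% of all genes: Ccnb1, Cdk1, Nek2, Melk, Bub1, Nuf2, Ndc80, Spc25, Sgo1, Kif11 and Prc1. The median difference of the 40 was -0.02 in number 1, -0.09 in number 2 and -0.31 in number 3. The lower values were thus mostly those of the library labelled Gata2 KO 3, the lowest of all 6 libraries for 29 members, against 31.9% of all genes.

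Among the genes of mitotic entry, 7 of 9 log2 fold changes were negative (median -0.23). Ccnb1, encoding cyclin B1, the partner that activates CDK1, was at 187, 208 and 148 CPM in the f/f cells, against 169, 169 and 96.2 CPM in the KO cells. The KO libraries reached the Gata2 f/f range in numbers 1 and 2 and only number 3 lay below it (log2 fold change -0.32 ± 0.29). Nek2, a centrosomal kinase that acts in centrosome separation, was at 65.0, 57.0 and 42.2 CPM and at 52.1, 45.8 and 27.2 CPM (-0.39 ± 0.31). With the block its value was -0.42 ± 0.17 (edgeR, unadjusted p = 0.0443, adjusted p = 0.457). Cdk1, the mitotic kinase itself, was at 118, 131 and 88.6 CPM and at 94.0, 109 and 73.7 CPM, with the KO library lower in every number, by 0.33, 0.26 and 0.26. The second B-type cyclin gene, Ccnb2, had differences near 0, of 0.008, -0.008 and -0.08. The kinases Aurka (-0.10 ± 0.24), which matures centrosomes, and Melk (-0.24 ± 0.26) and the phosphatase Cdc25c (-0.23 ± 0.28), which activates CDK1, had small negative values. Plk1, the polo-like kinase of mitotic entry, and Foxm1, the transcription factor of these genes, had positive values of 0.26 ± 0.26 and 0.26 ± 0.47. Both were highest in the library labelled Gata2 KO 1, at 181 and 21.9 CPM, against at most 123 and 15.1 CPM elsewhere. Foxm1 was lowest in Gata2 KO 3, at 6.26 CPM.

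The 6 genes of the spindle checkpoint and of protein destruction in mitosis were split, with 4 negative and 2 positive values. Bub1, a checkpoint kinase at kinetochores, was at 85.8, 103 and 61.7 CPM in the f/f cells, against 76.7, 90.5 and 35.7 CPM in the KO cells (-0.30 ± 0.38). Cdc20, the activator of the anaphase-promoting complex, was at 216, 178 and 135 CPM and at 210, 209 and 114 CPM (0.01 ± 0.31). Both genes separated number 3 from the other libraries and not the genotypes. The checkpoint kinase genes Bub1b (-0.17 ± 0.37) and Ttk (-0.27 ± 0.42) had their lowest value in Gata2 KO 3, at 76.1 and 11.9 CPM. Ube2c, the E2 enzyme of the anaphase-promoting complex, and Cdca3, which promotes mitotic entry, had -0.03 ± 0.26 and 0.12 ± 0.27. Exons of Ube2c overlap Tnnc2 on the other strand over 22.8% of their length, and whether counting used strand is not given in the sources used here.

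Top2a, encoding the topoisomerase that untangles chromosomes, was the most abundant member. It was at 644, 497 and 338 CPM in the f/f cells, against 655, 484 and 163 CPM in the KO cells. Libraries of numbers 1 and 2 differed little between genotypes, by log2 0.03 and -0.04, whereas number 3 differed by -1.05. The log2 fold change was -0.18 ± 0.50. Per kilobase of the longest coding transcript, Top2a averaged 88.8 CPM, second to Cdc20 at 98.7 CPM, whereas Mki67 averaged 17.7 CPM and Cenpf 1.67 CPM, the least of the 40.

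The 10 kinetochore, centromere and chromosomal passenger genes had 8 negative values (median -0.11). Spc25, a subunit of the NDC80 complex that links kinetochores to microtubules, was the only member whose genotypes did not overlap. It was at 53.9, 59.4 and 58.6 CPM in the f/f cells, against 46.6, 49.1 and 52.4 CPM in the KO cells. All KO libraries lay below all Gata2 f/f libraries, which held for 2.78% of all genes, by a small amount (-0.22 ± 0.19; edgeR, unadjusted p = 0.303, adjusted p = 1.00). The closest were f/f 1 with 945 counts and Gata2 KO 3 with 1246 counts, and this gap was not tested against counting error. The other NDC80 complex genes Nuf2 (-0.24 ± 0.31) and Ndc80 (-0.09 ± 0.34), the cohesin protector Sgo1 (-0.14 ± 0.33) and the passenger genes Cdca8 (-0.14 ± 0.27) and Birc5 (-0.03 ± 0.26) overlapped between genotypes. Aurkb, the passenger kinase, was at 155, 140 and 135 CPM and at 155, 144 and 82.6 CPM, low only in Gata2 KO 3 (-0.17 ± 0.28). Cenpa, the centromeric histone variant, was at 92.1, 92.9 and 58.4 CPM and at 75.7, 97.3 and 84.8 CPM (0.08 ± 0.25), so that in the KO libraries number 3 was not the lowest.

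Cenpe and Cenpf followed Mki67 more closely than the rest. Cenpe, encoding a kinetochore motor, was at 79.0, 37.3 and 11.2 CPM in the f/f cells, against 71.4, 38.1 and 15.5 CPM in the KO cells (-0.03 ± 0.76). Cenpf, encoding a large kinetochore protein, was at 36.2, 13.7 and 5.78 CPM and at 35.8, 15.9 and 4.37 CPM (0.01 ± 0.85). Number 1 exceeded number 3 by 5.65-fold for Cenpe and 7.06-fold for Cenpf (F test of the number term, adjusted p = 0.0101 and 0.00961). Within numbers the KO libraries differed by -0.14, 0.03 and 0.47 for Cenpe and by -0.02, 0.21 and -0.40 for Cenpf on the log2 scale. By Pearson's r of log2 CPM over the 6 libraries, given as a description since the libraries share their scaling and fall apart by number, the members most like Mki67 were Cenpe (0.98), Cenpf (0.97) and Dlgap5 (0.96). The least like it were Spc25 (-0.62), Cenpa (0.45) and Cdk1 (0.47).

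Of the 8 spindle genes, 5 had negative and 3 positive values, and 4 of the 8 members called between numbers were among them. Tpx2, which activates Aurora A on the spindle, was at 205, 185 and 115 CPM in the f/f cells, against 221, 170.5 and 86.9 CPM in the KO cells (-0.08 ± 0.39). Dlgap5, a protein of kinetochore fibres, was at 67.2, 55.3 and 27.7 CPM and at 79.0, 59.4 and 40.04 CPM (0.25 ± 0.39), with the KO library above in every number, by 0.23, 0.11 and 0.53. Kif11, the motor that separates spindle poles, was at 191, 158 and 87.2 CPM and at 171, 144 and 47.6 CPM (-0.26 ± 0.50). These 3 genes overlapped between genotypes, with both libraries numbered 3 at the bottom. Values for the microtubule depolymerase Kif2c were 0.13 ± 0.30, for Nusap1, which bundles microtubules, -0.10 ± 0.22, for the spindle protein Hmmr -0.11 ± 0.38, for Ckap2l 0.05 ± 0.42 and for Tacc3, a stabiliser of spindle microtubules, -0.04 ± 0.26.

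In the 5 cytokinesis genes Gata2 KO 3 was the lowest of the 6 libraries each time. Prc1, which bundles the central spindle, was at 59.3, 44.3 and 40.1 CPM in the f/f cells, against 55.9, 39.7 and 19.9 CPM in the KO cells (-0.31 ± 0.39). Anln, the scaffold protein anillin of the contractile ring, was at 84.8, 81.2 and 70.3 CPM and at 95.1, 68.3 and 38.0 CPM (-0.23 ± 0.34). Ect2, the exchange factor that starts furrowing, was at 77.8, 91.2 and 67.6 CPM and at 82.0, 86.1 and 26.2 CPM (-0.28 ± 0.43). In number 3 the KO library lay below the Gata2 f/f library by log2 1.01, 0.89 and 1.36 for these genes, whereas in numbers 1 and 2 the differences lay between -0.25 and 0.17. The kinesin genes Kif20a (0.02 ± 0.47) and Kif23 (-0.08 ± 0.27) were also lower in the KO library of number 3, by 0.73 and 0.59, and higher in that of number 1, by 0.24 and 0.30. Exons of Kif20a overlap Cdc23 on the other strand over 29.3% of their length, so its count may be shared.

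The difference between numbers went with transcript length. Of the 40 members, the 3 with the longest coding transcripts were Cenpf (11130 bases), Mki67 (10061) and Cenpe (7910), and these also had the largest ratios of number 1 to number 3. The median log2 difference of number 1 over number 3 was 0.55 in the 9 members up to 2 kb, 0.71 in the 20 of 2 to 4 kb and 1.11 in the 8 of 4 to 6 kb. Cenpe stood at 2.50, and Mki67 and Cenpf at 2.89 and 2.82. Across members, the Pearson correlation of this difference with log2 length was 0.80 (40 genes, which share libraries), and 0.57 over the 37 without those 3.

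The same order was seen over all genes. Among tested genes with a coding transcript, the median log2 difference of number 1 over number 3 was -0.33 in 3098 genes up to 2 kb, -0.01 in 4876 of 2 to 4 kb and 0.21 in 2477 of 4 to 6 kb. It was 0.44 in 969 genes of 6 to 8 kb and 0.70 in 642 over 8 kb, and across all 12062 genes the correlation with log2 length was 0.31. Genes in none of the cell cycle lists gave nearly the same medians, -0.33 and 0.69 at either end. The members' median lay above that of all genes in each length range, and Mki67 and Cenpf above its upper quartile of 1.23. Library content also differed: 4 genes that carry ribosomal RNA reads summed to 13822, 2364 and 1581 CPM in f/f libraries 1, 2 and 3. In the libraries labelled Gata2 KO 1, 2 and 3 they summed to 1676, 10282 and 2645 CPM. With these 4 genes left out of the unblocked edgeR fit, the log2 fold change of Mki67 was 0.44. Leaving them out acts on Mki67 only through the scaling and the shared fit, so this value does not test library content. The part of transcript length, and of RNA or library quality, in the Mki67 result was not tested.

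**Figure D3:**
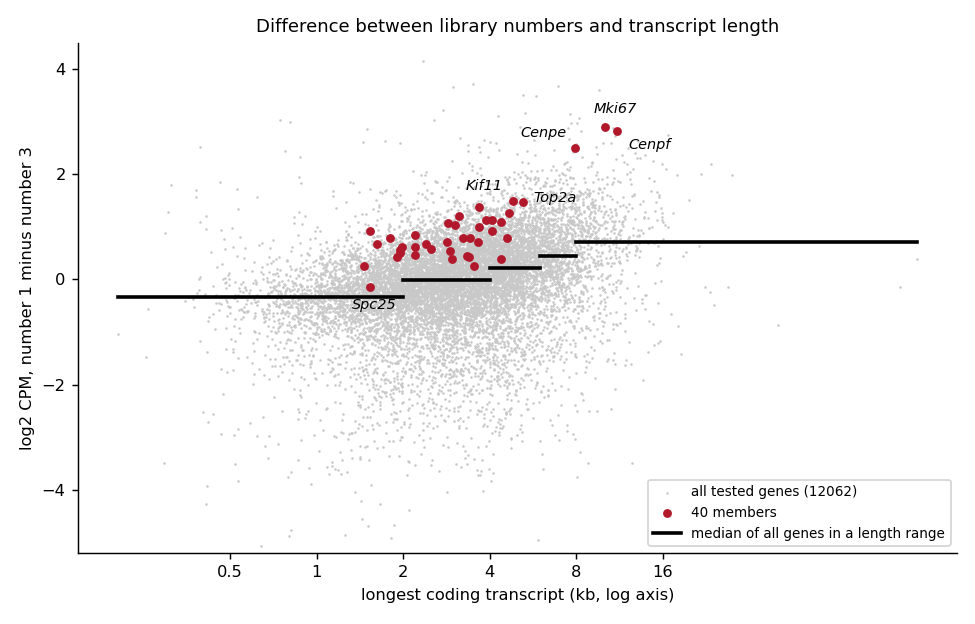
Log2 CPM of number 1 minus number 3, averaged over the genotypes, against the longest coding transcript of each gene (log axis): grey, 12062 tested genes; red, the 40 members; black bars, medians of all genes in 5 length ranges. The medians run from -0.33 to 0.70 and Mki67, Cenpf and Cenpe stand at 2.89, 2.82 and 2.50.

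Length also went with the genotype difference in number 3. Over all genes the correlation of the KO difference with log2 length was -0.42 in number 3, against 0.07 in number 1 and -0.02 in number 2. The median KO difference in number 3 was 0.36 up to 2 kb and -0.53 over 8 kb. Members of 4 to 6 kb had a median of -0.70 there, and Top2a, at 5221 bases, had -1.05. Mki67 and Cenpe went the other way, at 0.42 and 0.47, whereas Cenpf, the longest member, had -0.40.

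Other genes of mitosis showed the same layout. Of 80 listed genes that are not members, all were tested, and 58 had negative and 22 positive log2 fold changes (median -0.15). In both genotypes 60 were lowest in number 3, against 26.2% of all genes. None was called by edgeR, with 2 at an unadjusted p under 0.05, against 1.24% of all genes. Those 2 were higher in KO: Cdc25b, a phosphatase that activates cyclin-CDK complexes, was at 10.1, 9.01 and 14.3 CPM in the f/f cells, against 19.1, 14.3 and 27.9 CPM in the KO cells (0.87 ± 0.34), and Cdkn3, a phosphatase of CDKs, had 0.71 ± 0.30. Pkmyt1, the membrane-bound inhibitory kinase of CDK1, had 0.40 ± 0.24. The 3 listed genes over 8 kb, Kif14, Cit and Aspm, had differences of number 1 over number 3 of 1.65, 1.90 and 1.91 on the log2 scale, below that of Mki67.

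Subunits and partners of MuvB and DREAM had 9 negative values among 12. Lin9, a MuvB core subunit, was at 16.03, 19.0 and 18.0 CPM in the f/f cells, against 16.1, 15.0 and 7.86 CPM in the KO cells (-0.44 ± 0.32). Lin37 had 0.48 ± 0.24 and Lin52 -0.49 ± 0.30, with KO ranges that did not overlap those of Gata2 f/f, upward and downward, and an adjusted p of 1.00 each (edgeR). Every KO library lay above every Gata2 f/f library for 1 of the 12, against 2.64% of all genes. Every KO library lay below for 2 of the 12, against 2.78% of all genes. Mybl2, the activator that joins MuvB in cycling cells, was at 155, 127 and 91.0 CPM and at 193, 129 and 98.2 CPM (0.17 ± 0.32). E2f4, the DREAM E2F factor, had 0.06 ± 0.27.

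Among 40 genes of G1/S and DNA replication, 32 were negative (median -0.15), with none called. In both genotypes 32 were lowest in number 3, against 26.2% of all genes. Their summed level was 6453, 6827 and 4779 CPM in the f/f cells, against 6121, 6497 and 3462 CPM in the KO cells. The smallest p-values belonged to the polymerase subunit Pola1 (-0.49 ± 0.40), the chromatin remodeller Hells (-0.57 ± 0.49) and the ubiquitin ligase adaptor Dtl (-0.45 ± 0.42). The 39 members other than Mki67 summed to 4274, 3909 and 2749 CPM and to 4277, 3710 and 2118 CPM. Both sums were lowest in the libraries numbered 3, and lowest of all in Gata2 KO 3.

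Cdkn1a and markers of mature myeloid cells were mostly highest in number 3, where the members were mostly lowest. Cdkn1a was at 233, 228 and 758 CPM in the f/f cells, against 404, 389 and 979 CPM in the KO cells (0.54 ± 0.59), highest in number 3 in both genotypes. Monocyte and macrophage markers summed to 1045, 1159 and 6009 CPM and to 2383, 1885 and 7954 CPM. Of these, 12 of 12 were highest in number 3 in both genotypes, against 3743 of the 13744 genes tested. Late neutrophil markers summed to 296, 606 and 2070 CPM and to 1976, 638 and 3780 CPM, with 8 of 11 tested highest in number 3 in both, and none of these markers was at 0 in every library. Most of these markers also had higher values in Gata2 KO, unevenly over the numbers. For none of those tested did every KO library lie above every Gata2 f/f library. The median log2 difference in numbers 1, 2 and 3 was 2.55, 0.13 and 1.70 for late neutrophil markers. It was 1.29, 0.82 and 0.14 for monocyte and macrophage markers. Of the late neutrophil markers, 10 of 11 tested had positive log2 fold changes (median 1.57). By edgeR, 4 were at an unadjusted p under 0.05, against 1.24% of all genes, and 0 were called. DESeq2 with the block called 6 of them, against 1.62% of all genes. Of the monocyte and macrophage markers, 10 of 12 were positive (median 0.48). Here edgeR called 0 and DESeq2 with the block called 3, against the same 1.62%. The part of these cells and of Cdkn1a in the levels of the members was not tested.

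**Figure D4:**
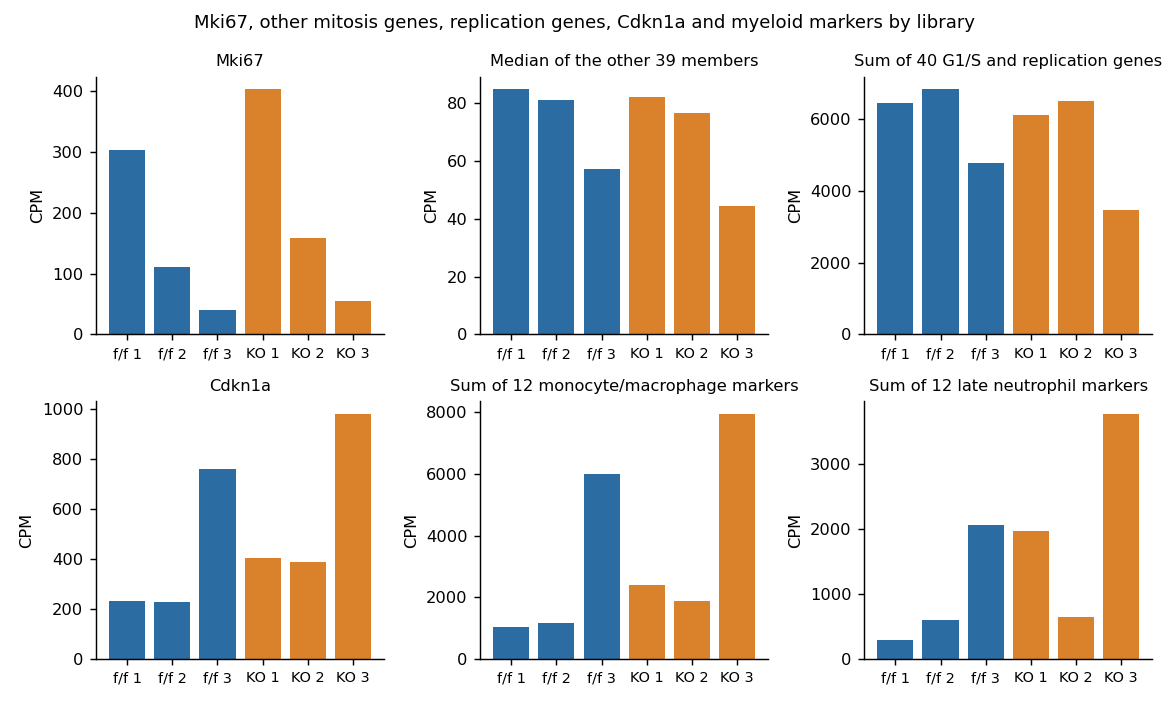
Bars of CPM for each of the 6 libraries (blue, Gata2 f/f; orange, Gata2 KO), all from 0: Mki67, the median of the other 39 members, the sum of 40 replication genes, Cdkn1a, and sums of 12 monocyte and macrophage and of 12 late neutrophil markers. Mki67 is at 303 CPM in the f/f library 1 and 40.4 CPM in the f/f library 3, where the median of the others is 84.8 and 57.4 CPM.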

How the data were processed

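Poly(A) RNA of 6 cultures was sequenced as 90 bp paired reads, per the labels' protocols. The deposited table holds raw read counts per gene, made by the authors; per the submitters' processing notes, mm10, HTSeq, kallisto and DESeq2 were used, in roles that are not stated, and annotation and strand setting are likewise not given here. Of the gene IDs, 49326 matched GENCODE M21 (GRCm38) without version.

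Counts were tested with edgeR 4.0.16 (R 4.3.3): TMM scaling, filterByExpr with a minimum count of 10, robust quasi-likelihood test over all 13744 genes, Benjamini-Hochberg threshold 0.05. The procedure was tested on simulated data. Within-number differences use log2 CPM with a prior count of 2. Alternatives used DESeq2 1.42.0, limma 3.58.1 (voom), other scalings and filters, and each library left out. Libraries share replicate numbers, and the deviations of same-numbered libraries from their group means correlated at 0.294, 0.555 and 0.653 in numbers 1, 2 and 3. As each was over 0.1, the number was taken as a pairing and fitted as a block in an alternative to the main fit, which has no block. The pairing is not clean: f/f 1 correlated more with the library labelled Gata2 KO 2 (0.455) than with KO 1, f/f 2 correlated with KO 1 at 0.104, and of all pairs of libraries f/f 1 and that same KO library had the most similar counts. The fit of DESeq2 with a block, the F test of the number and the recount without the library labelled Gata2 KO 2 were chosen after seeing the data. Nothing says the samples of a group are independent leukaemias, so p-values measure only the spread between these samples, which may be technical. The labels mention no molecular identifiers.

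The members and lists were chosen with earlier results of these data known. All 40 members are named; full values are given for Mki67 and, per role, for the gene with the smallest p and the one with the highest level, for the genes most and least like Mki67, and for the 3 smallest p-values of each other list, besides Gata2, Cdkn1a, Mybl2, Lin9 and E2f4. Other members whose values are given in each library were chosen after their values were seen. Lengths are those of the longest protein-coding transcript.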

Additional observations from a re-analysis of the deposited data

How the results depend on the processing

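No member was called under any alternative. Over all genes, DESeq2 called 2 higher and 5 lower in Gata2 KO, DESeq2 with the block 180 and 42, and edgeR called 0 both without the block (171 at an unadjusted p under 0.05) and with it (1473). Leaving out the library labelled Gata2 KO 2, edgeR called 33 and 21 with the block and 0 without it (412 at an unadjusted p under 0.05). With the replicate block the log2 fold change of Mki67 was 0.45 (edgeR, adjusted p = 0.418; 0.385 to 1.00 over the alternatives), and the block changed no call of a member, with edgeR or DESeq2. Leaving out 1 library at a time, Mki67 ranged from -0.52 to 1.36, the median member difference from -0.35 to 0.091 and Mki67 against the other members from 0.066 to 1.17. Of the 40 members, 30 changed the sign of their log2 fold change in some setting, all 30 of them with 1 library left out and 7 in other settings; 10 kept it in all 17 settings. The ranges with 1 library left out were Anln -0.58 to 0.028, Aurka -0.25 to 0.040, Aurkb -0.35 to 0.037, Birc5 -0.22 to 0.11, Bub1b -0.49 to 0.11, Ccnb2 -0.31 to 0.23, Cdc20 -0.19 to 0.23, Cdca3 -0.12 to 0.22, Cdkn1a -0.054 to 1.32, Cenpa -0.14 to 0.19 and Cenpe -0.68 to 0.71. They were Cenpf -0.88 to 0.87, Ckap2l -0.34 to 0.34, Dlgap5 -0.084 to 0.46, E2f4 -0.10 to 0.22, Ect2 -0.55 to 0.069, Foxm1 -0.27 to 0.58, Hmmr -0.42 to 0.16, Kif11 -0.61 to 0.094, Kif20a -0.39 to 0.37, Kif23 -0.37 to 0.076 and Kif2c -0.15 to 0.33. They were Mybl2 -0.15 to 0.35, Ndc80 -0.38 to 0.10, Nusap1 -0.26 to 0.020, Plk1 -0.017 to 0.39, Sgo1 -0.36 to 0.088, Tacc3 -0.26 to 0.072, Top2a -0.62 to 0.18, Tpx2 -0.41 to 0.19, Ttk -0.60 to 0.057 and Ube2c -0.23 to 0.093. Under "DESeq2 size factors in edgeR", values of the other sign were Cdc20 -0.0093 and Cenpf -0.00788. Under "upper-quartile scaling", values of the other sign were Cdc20 -0.025, Cenpf -0.052 and Kif20a -0.026. Under "no filter on low counts", values of the other sign were Cdc20 -0.043, Cenpf -0.039, Ckap2l -0.00545 and Kif20a -0.030. Under "DESeq2", values of the other sign were Cdc20 -0.0093 and Cenpf -0.0090. Under "limma voom", values of the other sign were Cdc20 -0.018, Cenpe 0.14, Cenpf -0.042, Ckap2l -0.034 and Kif20a -0.12. Under "replicate block", values of the other sign were Cdc20 -0.018, Cenpe 0.11, Cenpf -0.059, Ckap2l -0.033 and Kif20a -0.12. Under "DESeq2 with the replicate block", values of the other sign were Cdc20 -0.037, Cenpe 0.092, Cenpf -0.076, Ckap2l -0.052 and Kif20a -0.14. Under "the library labelled Gata2 KO 2 left out, with the replicate block", values of the other sign were Cdc20 -0.15, Cenpe 0.15, Cenpf -0.21, Ckap2l -0.12, Kif20a -0.25 and E2f4 -0.057. Under "without both libraries numbered 3", values of the other sign were Cenpa -0.13 and Kif23 0.10. Apart from fits with fewer samples, the cause of these changes was not tested. Scaling alternatives moved the median of all genes by less than 0.1 on the log2 scale. Each group has 3 libraries, and Cenpf in Gata2 KO 3 rests on 104 counts, the fewest of any member.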
